A study of Mus musculus with 30 samples.

Results

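Suz12 was mapped by chromatin immunoprecipitation and sequencing (ChIP-seq) after knock-down of Elongin B (EloB), and the deposited list of that library holds 7168 peaks, of 240359 peaks in the 20 peak lists of the series. All peaks of the list were used. They were compared with the 6834 peaks of the list whose header reads si ct (Suz12 replicate 1 in the sample titles), which is the list matched by method, and with the 7972 peaks of the list whose header reads sh ct (Suz12 replicate 2). The cells were E14Tg2A, a mouse embryonic stem cell line, kept without feeder cells in serum and LIF. The EloB knock-down was transient: small interfering RNA (siRNA) was transfected on consecutive days and the cells were harvested 48 h after the first transfection. The same antibody lot was used in all 3 libraries. The titles call both control lists only Suz12 replicates, so the tie of each to a silencing method rests on its header, and the labels do not say that the replicates were separate cultures. There is 1 library upon EloB knock-down. No value used here measures the level of EloB in it, and the 9 RNA samples were not analysed here. The peak lists hold no expression values, so markers of embryonic stem cells were not checked.

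Suz12 is a core subunit of Polycomb repressive complex 2 (PRC2), which places H3K27me3, a histone mark of repressed genes. In embryonic stem cells PRC2 lies mainly at CpG-rich promoters of developmental regulators, many of which also carry H3K4me3, a mark of promoters. EloB forms a dimer with Elongin C that serves in the elongin complex, which stimulates transcript elongation, and in ubiquitin ligases. EPOP (C17orf96) binds both PRC2 and the Elongin B and C dimer, and Jarid2 is an accessory subunit of PRC2. The comparison addresses whether Suz12 stays on chromatin when EloB is reduced.

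Suz12 peaks upon EloB knock-down resembled those of si ct more than the 2 control lists resembled each other. They covered 19.2 Mb, against 18.4 Mb in si ct and 13.9 Mb in sh ct. The median peak was 1989.5 bp wide upon EloB knock-down, 2020.5 bp in si ct and 1377 bp in sh ct, and the lists held 172, 164 and 30 peaks over 10 kb. At the level of single bases, 91.9% of the length of the si ct peaks lay in a peak upon EloB knock-down and 67.3% in a peak of sh ct. The shared length divided by the combined length was 0.818 for EloB knock-down with si ct, 0.624 for sh ct with si ct and 0.603 for EloB knock-down with sh ct. Peak number lay between the controls, at 1.05 times si ct and 0.899 times sh ct, while covered length lay above both, at 1.04 times si ct and 1.38 times sh ct. The controls themselves differed by 0.754 times in covered length (sh ct over si ct). With 1 library against 2, a two-sided exact permutation test cannot give a p below 0.333, so no test was made, and the gap between the controls, which also differ in method by their headers, is given beside each value as the spread. Intervals below are Wilson 95% intervals and cover counting of peaks or regions only, which are not replicates.

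Every list gives a score to each peak. The score is the authors' own, starts at 50, and is tied at 3100 for 1925 peaks upon EloB knock-down, 1634 of si ct and 448 of sh ct, with few peaks above. It was used to describe, rank and filter the peaks of a list, and a difference in score between lists is not read as a change. Among the 6834 si ct peaks, 6393 had a counterpart (an overlap of at least 1 bp) upon EloB knock-down and 5689 in sh ct. The gap was 10.3 percentage points, and it lay mainly among weak peaks. The list was divided by score into 10 deciles. In decile 1 of si ct, the lowest, 61.1% (57.4 to 64.7) had a counterpart upon EloB knock-down and 41.1% in sh ct. In decile 5, whose lowest score was 333, the shares were 100% (683 of 683) and 93.0%. From decile 5 to decile 10, 1 si ct peak had no counterpart upon EloB knock-down. Of all si ct peaks, 838 were found upon EloB knock-down but not in sh ct, 134 in sh ct but not upon EloB knock-down, and 307 in neither. Seen from sh ct, the 2 siRNA lists were alike: in its decile 1, 36.7% had a counterpart upon EloB knock-down and 32.6% in si ct, and in its decile 5, 92.3% and 91.8%.

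**Figure D1:**
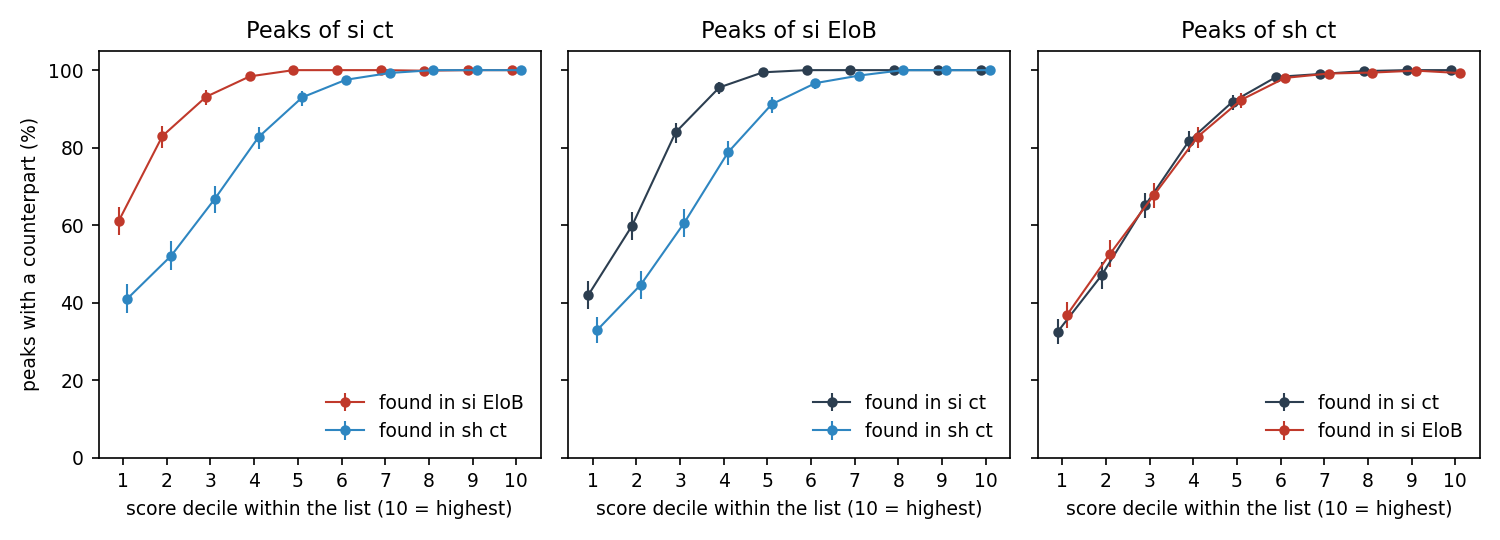
Share of Suz12 peaks with a counterpart in each other list (y axis, percent, with Wilson 95% intervals) by score decile within the list named above each panel (x axis, 10 is the highest). Among si ct peaks decile 1 was found at 61.1% upon EloB knock-down and at 41.1% in sh ct, and all 3 panels approach 100% in the upper deciles.

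The absence of Suz12 regions was then set against the same measure for each control, by asking which regions of any 2 lists the remaining list lacked. Of 5669 regions found in both si ct and sh ct, 132 (2.33%; 1.97 to 2.75) held no peak upon EloB knock-down. Of 5748 regions found upon EloB knock-down and in sh ct, si ct lacked 239 (4.16%), and of 6194 found in both siRNA lists, sh ct lacked 729 (11.8%). The EloB knock-down list thus lacked a smaller share than either control. Each share was taken over a different set of regions, set by the 2 lists required, so the order is not a ranking of loss. Of all 7972 sh ct peaks, 82.8% had a counterpart upon EloB knock-down and 81.5% in si ct. Over the 8700 separate stretches covered by the 3 lists together, 5460 (62.8%) held a peak in every list.

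Regions that carry EloB itself in cells without knock-down kept Suz12 nearly throughout. Here EloB, EPOP and H3K4me3 regions are those found in both replicates of that ChIP without knock-down, while H3K27me3 and Jarid2 have 1 list each. Suz12 was kept at 735 of 737 EloB-bound regions (99.7%; 99.02 to 99.93), where 2 of 737 missing (0.271%) stands against 2.33% over all regions. In the same class si ct lacked 2 of 735 and sh ct lacked 0 of 731, which allows a share of up to 0.523% (the upper Wilson bound). Jarid2-bound regions kept Suz12 at 2168 of 2171, EPOP-bound regions at 4760 of 4817 (98.8%; 98.5 to 99.1) and regions with H3K27me3 at 4625 of 4686 (98.7%; 98.33 to 98.99). Shares were lower where a mark was absent: 91.2% (89.1 to 92.9) of 852 regions without EPOP and 92.8% (91.0 to 94.2) of 983 without H3K27me3. The controls showed the same order with larger gaps, since si ct lacked 19.4% and sh ct 41.7% of the regions without EPOP. By H3K4me3, the list upon EloB knock-down lacked 129 of 5531 regions with the mark (2.33%) and 3 of 138 without it (2.17%). The controls lacked more without the mark, 18 of 150 regions for si ct and 207 of 330 for sh ct. The near equality upon EloB knock-down held for regions required in both controls and not otherwise: with si ct alone 95.2% of regions with H3K4me3 and 75.6% without it were kept, with sh ct alone 86.3% and 50.5%, and over regions of either control 84.4% and 47.0%.

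**Figure D2:**
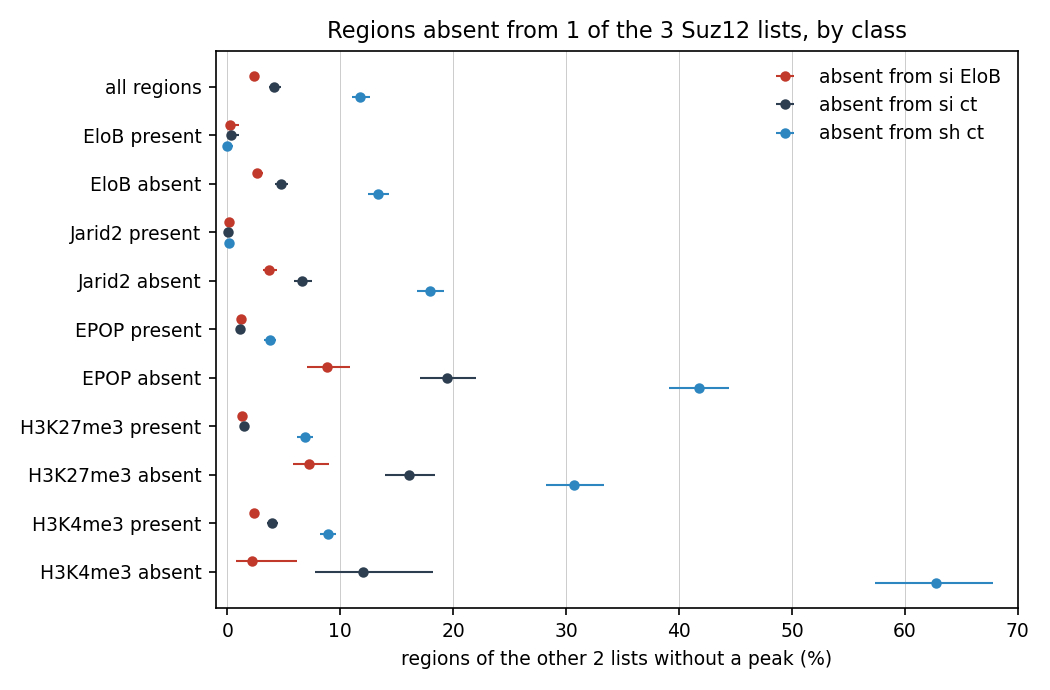
Share of Suz12 regions of any 2 lists that the remaining list lacked (x axis, percent, Wilson 95% intervals), by whether the region also held the ChIP target named on the y axis without knock-down. The EloB knock-down list lacked 2.33% of all regions and 0.271% of EloB-bound ones, and in classes with a target absent its share lay below that of sh ct.

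Within bands of si ct score, the classes lay close together. Of the 508 regions that scored under 100, those with EPOP kept Suz12 in 79.3% of cases and those without EPOP in 80.3%. With a score of 100 to 200 the shares were 96.3% of 374 and 95.9% of 268, and with 200 to 500 they were 99.9% of 705 and 98.4% of 193. H3K27me3 gave the same picture, with 79.7% kept where present and 80.1% where absent under a score of 100. Regions without EPOP had a median si ct score of 129, and regions with it 1527. All 1681 regions at a si ct score of 3100 or more were kept, 710 with EloB and 971 without. The 710 are nearly all of the 737 EloB-bound regions, so this class holds few weak regions.

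Missing regions were mostly weak in the controls. Their median si ct score was 76.2, against 1095 for kept regions, and their median si ct width 1122.5 bp against 2321 bp. Scores under 200 were found for 127 of the 132 (96.2%) and for 1023 of the 5537 kept regions (18.5%). The nearest peak upon EloB knock-down lay at a median distance of 55561.5 bp, and within 1 kb for 1 region. H3K4me3 was still called at these sites in the library with EloB knock-down: 131 of the 132 missing Suz12 regions held an H3K4me3 peak there and 130 held one in the si ct H3K4me3 list. At kept regions the H3K4me3 counts were 5494 and 5493 of 5537.

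The 5 missing regions with the highest si ct score were led by a very wide stretch of chromosome 11, described further below. The next was chromosome 2, 26357746 to 26359469 (coordinates are mm9, counted from 1), with H3K27me3 and H3K4me3 but neither EPOP nor EloB. Its Suz12 peak was 1724 bp wide with a score of 289 in si ct and 1492 bp with a score of 155 in sh ct. The others were chromosome 17, 57413831 to 57416417, with EPOP, H3K27me3 and H3K4me3, and chromosome 9, 53619013 to 53620762, and chromosome 16, 35870647 to 35872794, with H3K4me3 alone. Their si ct scores were 247, 247 and 234. After the chromosome 11 stretch, therefore, no region with a si ct score above 289 was missing. The other EloB-bound region without a peak lay at chromosome 9, 3018227 to 3019590, with a si ct score of 51.3 and a sh ct score of 80.4.

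Peaks found only upon EloB knock-down were weak as well. They numbered 613, or 8.55% (7.93 to 9.22) of the list. The same count was 307 (4.49%) for si ct and 1220 (15.3%) for sh ct, each against the other 2 lists, so the value upon EloB knock-down lay between the controls. The 613 peaks had a median width of 919 bp and a median score of 72.5. Scores under 100 were held by 468 of them (76.3%), against 16.5% of the whole list. Among peaks found only in si ct or only in sh ct, 84.4% and 81.3% scored under 100. They lay on H3K4me3 in 61.7%, on H3K27me3 in 26.1%, on EPOP in 8.16% and on EloB in 1 case, and none overlapped a Jarid2 peak. Over all 7168 peaks upon EloB knock-down the shares were higher, at 91.0% on H3K4me3, 72.7% on H3K27me3, 70.4% on EPOP, 30.2% on Jarid2 and 10.3% on EloB. Peaks found only in si ct had nearly the same company, with 54.7% on H3K4me3, 30.3% on H3K27me3 and 11.1% on EPOP. Those found only in sh ct differed from both siRNA lists in H3K27me3, at 10.0%, with 69.4% on H3K4me3. Scores of 200 or more were reached by 22 of the 613, by 5 of the 307 found only in si ct and by 29 of the 1220 found only in sh ct.

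The 5 strongest of the 613 were as follows. Chromosome 4, 117506712 to 117509314, was 2603 bp wide with a score of 694 and lay on H3K4me3 only. Chromosome 2, 158891056 to 158894000, had a score of 341 and lay on H3K27me3 without H3K4me3. Chromosome 1, 94830105 to 94832304 (score 330), lay on H3K4me3 alone, chromosome 16, 76292149 to 76293799 (score 324), on H3K27me3 and H3K4me3, and chromosome 11, 106020833 to 106022312 (score 259), on EPOP and H3K4me3. Only the last of the 5 held EPOP and none held EloB.

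Peak width is the remaining measure in these lists. It gives the extent of a called peak, and the amount of Suz12 bound was not measured. At the 5537 kept regions the summed width upon EloB knock-down over si ct had a median log2 ratio of 0.040 (quartiles -0.072 and 0.19). Against sh ct the median was 0.46 (0.24 and 0.70), and the controls differed by -0.39 (-0.63 and -0.20; sh ct over si ct). Width changed by less than 1.5-fold from si ct in 94.4% of regions, whereas 71.0% of the same regions were that close between the controls. The region was wider than in both controls at 3211 regions (58.0%), between them at 2060 and narrower than both at 266. Most of these excesses were small. At least 1.5-fold wider than si ct were 251 regions (4.53% of those tested) and at least 1.5-fold narrower were 60 (1.08%). Against both controls at once the counts were 220 (3.97%) and 6 (0.108%).

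**Figure D3:**
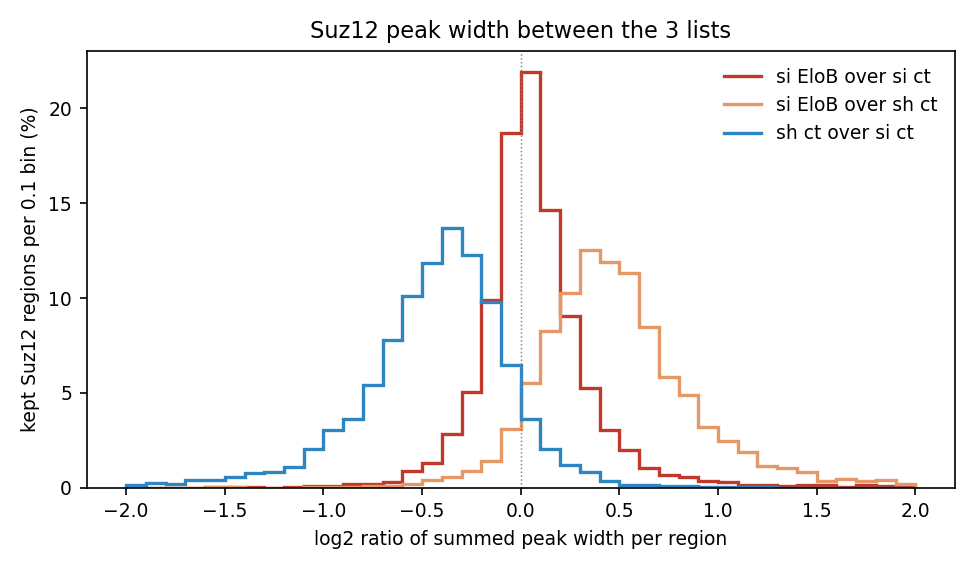
Distribution of the log2 ratio of summed Suz12 peak width at the 5537 kept regions (x axis), as percent of regions per bin (y axis), for EloB knock-down over si ct, EloB knock-down over sh ct, and sh ct over si ct. The ratio to si ct is centred at 0.040 and is the narrowest of the 3, while the ratios that involve sh ct are centred at 0.46 and -0.39. Ratios beyond the axis (20, 89 and 27 regions) are not drawn.

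Joined peaks made up much of the apparent widening. Upon EloB knock-down 175 peaks spanned 2 or more si ct peaks, 374 in all, while 115 si ct peaks spanned 2 or more peaks upon EloB knock-down. In the region widths, the full width of a joining peak is counted for each region below it. Of the 251 regions called wider than si ct, 129 lay under a joining peak. When overlapping peaks of the 3 lists were merged and each peak was counted once, 126 of 5460 stretches (2.31%) were at least 1.5-fold wider than in si ct and 60 narrower, with a median log2 ratio of 0.034. For sh ct over si ct the counts were 26 and 1569. The 5 regions with the largest width relative to both controls all lay under a joining peak. The top one, on chromosome 4, 97438007 to 97439261, had a log2 ratio of 2.87 to si ct as a region. As a whole stretch it measured 9147 bp in 1 peak upon EloB knock-down, 7001 bp in 2 peaks in si ct and 5947 bp in 3 peaks in sh ct. The second, on chromosome 14, 49280776 to 49282841, measured 14058 bp, 12524 bp and 7959 bp as a stretch.

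The 735 kept EloB-bound regions differed little in width between EloB knock-down and si ct. Their median log2 ratio to si ct was 0.023, against 0.040 over all regions, and none was 1.5-fold narrower. As regions, 18 of 735 (2.45%, against 4.53% over all) were 1.5-fold wider. With each peak counted once this became 0 of 731, against 2.31% of all stretches, with a median log2 ratio of 0.017 (quartiles -0.040 and 0.086). Jarid2-bound stretches gave 8 of 2144 wider and 4 narrower. Stretches without EPOP were wider in 56 of 761 cases (7.36%) and those with EPOP in 70 of 4699 (1.49%). As regions, this gap varied with si ct score, whose median was 129 without EPOP and 1527 with it. Under a score of 100, 11.5% with EPOP and 12.05% without were 1.5-fold wider. The shares were 7.50% and 9.34% at 100 to 200, and 3.98% and 7.89% at 200 to 500. From 500 to 3100 they were 3.06% and 10.4% (8 of 77), and at 3100 or more 2.62% and 0 of 4. These bands were not repeated with each peak counted once. Between the controls (sh ct over si ct) the wider shares of stretches were 1.31% without EPOP (10) and 0.340% with it (16). The narrower shares, far more common there, were close, at 30.0% without and 28.5% with EPOP. At a si ct score of 3100 or more the median log2 ratio was 0.026 for regions with EloB and 0.041 for those without, and sh ct over si ct gave -0.40 and -0.41. As regions at that score, 18 of 710 with EloB (2.54%) and 26 of 971 without (2.68%) were 1.5-fold wider. The same split was not made with each peak counted once.

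The edges of peaks showed how closely the siRNA lists matched. At 4905 regions with exactly 1 peak in each list, an edge moved by a median of 116 bp between EloB knock-down and si ct and by 254 bp between the controls. The left edge lay 27 bp and the right edge 26 bp further out upon EloB knock-down than in si ct, as medians. In sh ct they lay 242 bp and 238 bp further in than in si ct. Both edges moved outward at 34.4% of regions upon EloB knock-down and both moved inward at 19.5%. The outward shift from si ct was thus alike on both sides, and far smaller than the inward shift of sh ct.

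By region width, narrow regions differed most. In these widths a joining peak counts in full for each region below it. The quartiles were not repeated with each peak counted once. In quartile 1 by sh ct width (302 to 1201 bp), a width that plays no part in the ratio to si ct, the median log2 ratio of EloB knock-down to si ct was 0.086. In quartiles 2, 3 and 4 it was 0.036, 0.046 and 0.023. Widths of 1.5-fold or more above si ct were reached by 8.60% of quartile 1 and 3.32% of quartile 4. Narrowing of 1.5-fold or more was also more frequent in quartile 1, at 1.95% against 0.144% in quartile 4. The median log2 ratio of sh ct over si ct was -0.53 in quartile 1 and -0.36 in quartile 4. In quartile 1 the median summed width was 1409 bp upon EloB knock-down, 1316.5 bp in si ct and 936.5 bp in sh ct.

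The 5 kept regions named for their score lay under peaks with the highest score upon EloB knock-down, 3233. A pair of them lay under 1 peak of chromosome 15, described with the widest stretches below. On chromosome 2, 79293797 to 79300446, peaks measured 6626 bp upon EloB knock-down, 6650 bp in si ct and 4916 bp in sh ct. On chromosome 2, 163678736 to 163680978, they measured 2592 bp, 2243 bp and 1841 bp, and on chromosome 7, 25216644 to 25219488, 2477 bp, 2845 bp and 2117 bp. All 5 carried EPOP, H3K27me3 and H3K4me3, and only the pair on chromosome 15 carried EloB. Over all 5537 kept regions the shares were 86.0% with EPOP, 83.5% with H3K27me3, 97.6% with H3K4me3 and 13.3% with EloB.

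Among the regions that narrowed most against both controls, all 5 carried EPOP, H3K27me3 and H3K4me3, and none carried EloB. Most kept regions carry these 3 marks (86.0%, 83.5% and 97.6%) and few carry EloB (13.3%), so these 5 do not stand apart in this. On chromosome 11, 32354537 to 32356952, Suz12 peaks measured 1448 bp upon EloB knock-down, 1876 bp in si ct and 1913 bp in sh ct. On chromosome 5, 137504605 to 137509010, which also carries Jarid2, they measured 2883 bp, 4406 bp and 3710 bp. The log2 ratios to si ct were -0.37 and -0.61. No narrowing of 1.5-fold against both controls was among these 5, which by rule had a score at or above the median of the EloB knock-down list.

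Broad Suz12 domains had nearly the same width upon EloB knock-down as in si ct, with a single exception among the 12 widest. In the 163 kept regions over 10 kb, the median log2 ratio of width to si ct was 0.016 and that of sh ct over si ct -0.36. Splitting into several peaks was counted over the 5460 stretches with a peak in every list, which treat the lists alike: they held 5568 peaks upon EloB knock-down, 5645 in si ct and 6365 in sh ct. The 4 widest stretches lay on chromosomes 11, 15, 2 and 6, which are the chromosomes that hold the Hoxb, Hoxc, Hoxd and Hoxa clusters of developmental regulators in the mouse. No mm9 gene annotation was used, so no stretch was assigned to a gene. The stretch of chromosome 15, 102776845 to 102848289, measured 71445 bp in 1 peak upon EloB knock-down, 71038 bp in 2 peaks in si ct and 55828 bp in 18 peaks in sh ct. That of chromosome 2, 74492025 to 74554534, measured 62462 bp, 62213 bp and 48474 bp, and that of chromosome 6, 52146142 to 52205427, measured 59257 bp, 59195 bp and 53323 bp. All of these stretches also held EPOP, EloB, Jarid2, H3K27me3 and H3K4me3. Over the 11 of the 12 widest stretches that held a peak in every list, the log2 ratio to si ct ran from -0.054 to 0.033 (median 0.0058), and that of sh ct over si ct from -0.62 to -0.13.

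**Figure D4:**
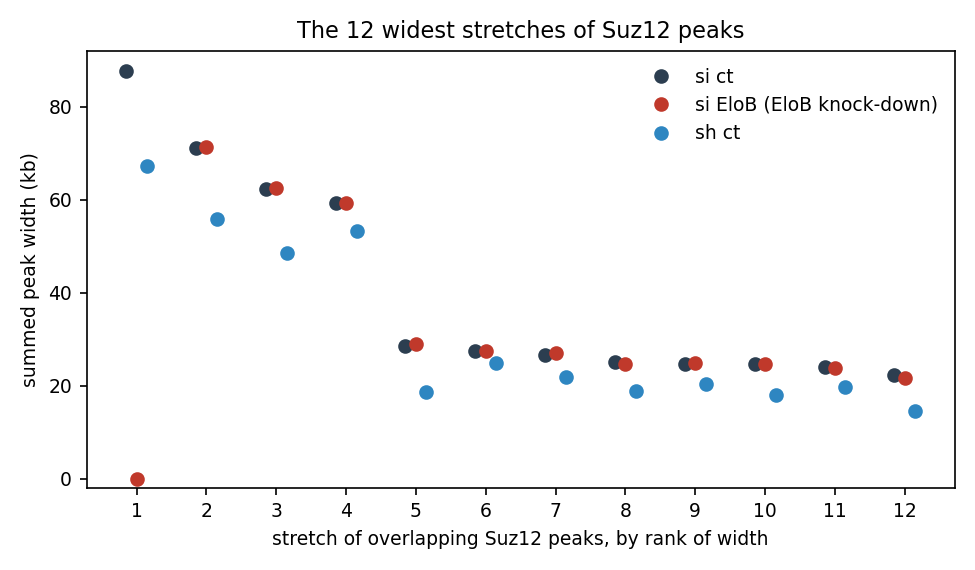
Summed Suz12 peak width in kb (y axis) over the 12 widest stretches of overlapping peaks (x axis, ranked by width), 1 point per list. In 11 stretches the points of si ct and EloB knock-down lie close together above that of sh ct, and in the widest the EloB knock-down point is at 0.

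The exception was the widest stretch of all, chromosome 11, 96129226 to 96216942, 87717 bp wide. A single si ct peak of 87683 bp spanned it, and Suz12 peaks covered 76.6% in sh ct, in 14 peaks. The list upon EloB knock-down held no peak in it. Peaks beside it were present: to the left, the next peak ended 2445 bp before the stretch upon EloB knock-down and 2448 bp before it in si ct, and to the right the next one began 7659 bp and 7333 bp beyond it. Other ChIPs without knock-down marked the stretch, with H3K27me3 over 84.8%, Jarid2 over 49.0% and EPOP over 76.7% and 89.9% of it in the replicates. Upon EPOP knock-down, Suz12 peaks covered 78.0% and Jarid2 peaks 62.8%, but H3K27me3 peaks only 21.8%. A list without EloB knock-down thus also lacked calls over much of the stretch, and the cause was not tested. EloB without knock-down covered 17.2% and 14.5%. H3K4me3 peaks were called in the same stretch in the library with EloB knock-down, 20 peaks over 34.6%, against 18 peaks over 27.2% in si ct. The stretch holds all 6 peaks in decile 10 of sh ct that had no counterpart upon EloB knock-down. Without reads, an absent call could not be told apart from absent signal. Leaving this stretch out, 131 regions were missing and 97.7% were kept, as with it.

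**Figure D5:**
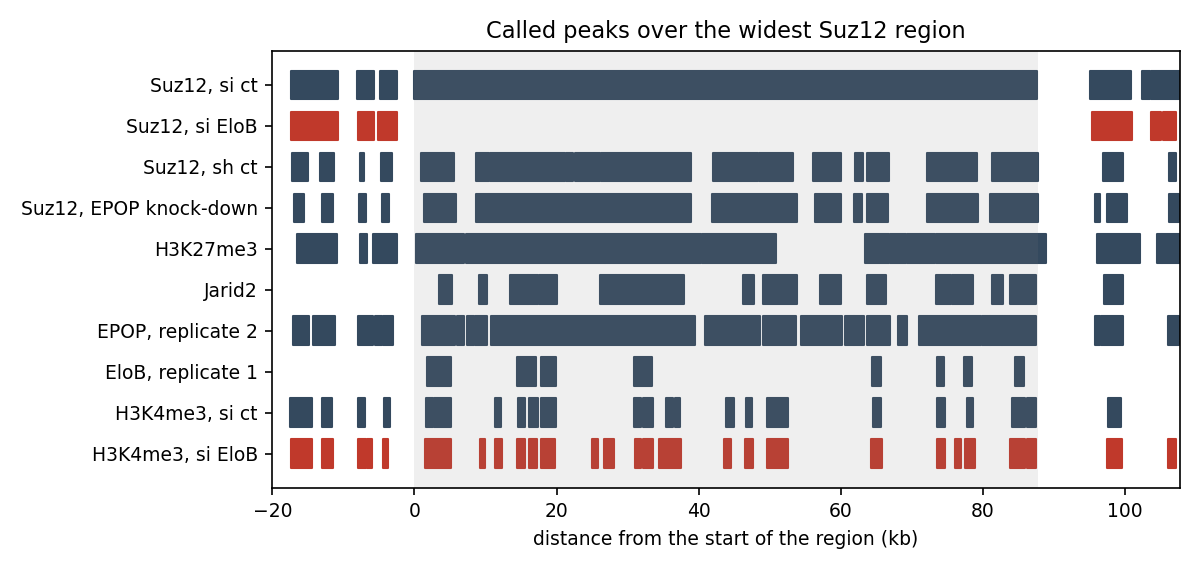
Called peaks (bars) along the widest Suz12 stretch (grey, 0 to 87.7 kb from its start, x axis in kb) and 20 kb on each side, 1 row per library, with the libraries upon EloB knock-down in red. Suz12 peaks upon EloB knock-down flank the stretch on both sides at the places where si ct has them and are absent within it, while H3K4me3 peaks are present there.

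Suz12 peaks were finally counted from the side of the other targets, whose regions do not depend on any Suz12 list. Of 930 EloB regions, 850 (91.4%; 89.4 to 93.0) held a Suz12 peak upon EloB knock-down, 855 in si ct and 862 in sh ct. Of 5720 EPOP regions the counts were 5347 (93.5%), 5350 and 5265, and of 2641 Jarid2 peaks 2540 (96.2%), 2557 and 2573. H3K27me3 peaks held Suz12 in 77.0% of 8811 cases upon EloB knock-down, in 75.9% in si ct and in 67.0% in sh ct. H3K4me3 regions, 32277 in number, held Suz12 in 21.8%, 20.9% and 21.9%. For EPOP, H3K27me3, H3K4me3 and EloB regions the EloB knock-down value differed from si ct by less than the controls differed from each other. For Jarid2 regions it differed by slightly more. For EloB and Jarid2 regions the EloB knock-down value was lower than in both controls. The single chromosome 11 stretch holds several of these EloB and Jarid2 peaks: 9 and 10 EloB peaks in the replicates and 15 Jarid2 peaks. Both controls held Suz12 peaks in that stretch and the EloB knock-down list held none. The counts were not repeated without it.

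The ratio of peak number, EloB knock-down over si ct, ran from 0.997 on chromosome 15 to 1.12 on chromosome 3 over the 19 autosomes and was 1.14 on the X chromosome. That of sh ct over si ct ran from 1.03 to 1.27 and was 1.14 on X. The kept share ran from 95.5% on chromosome 10 to 99.5% on chromosome 18, and was 99.3% on X. The median log2 width ratio to si ct was above 0 on every autosome, from 0.013 to 0.077, and 0.11 on X. That of sh ct over si ct ran from -0.45 to -0.34 over the autosomes and was -0.46 on X. Chromosomes are parts of the same lists and not replicates.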

How the data were processed

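The 20 peak lists of E14Tg2A cells were used, 3 of them for Suz12, each from 1 sample; the IgG sample and the RNA (9 samples) were not analysed here. The submitters' processing notes name Bowtie, TopHat, Cufflinks and mm9. Peak names contain MACS, per the file headers and rows; caller settings and versions are not stated in the labels or files. The deposited score per peak is the authors' own, with no definition stated. Read depth is unknown and can change which peaks are called.

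Peaks overlapping by 1 bp or more were matched. Regions were merged peaks of si ct and sh ct that overlap each other, kept where a peak upon EloB knock-down touched them, with width as the sum of touching peaks. Samples were grouped by title, and si ct and sh ct are track names. No test was made.

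Named regions were the 5 highest-scoring missing, new and kept regions, the 5 widest and 5 narrowest relative to both controls (scoring at or above the median upon EloB knock-down), and the 5 widest overall. Members and lists were chosen with earlier results of these data known. Planned gene lists were not used, for want of an mm9 annotation here, and no sequence is shown. Alternatives changed the overlap rule, peaks, chromosomes and control lists. Counting each peak once and leaving out joined regions or the widest missing region were chosen after seeing the data.

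Python 3.11.15 with NumPy 2.4.6, pandas 2.3.3, SciPy 1.17.1 and Matplotlib 3.10.9 was used. Overlaps equalled those of bedtools 2.31.1 in 6 comparisons. On data simulated for this comparison, shares were recovered to 0.794 percentage points and log2 widths to 0.00919. Each simulated peak was a resized copy of its region. Split and joining peaks were not simulated, so the error they bring to the width counts was not measured.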

Additional observations from a re-analysis of the deposited data

How the results depend on the processing

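Of 274 values under alternative settings, 232 stayed close to the reported value, 42 moved and 0 changed direction. Counts were called close within 1.5-fold. Other values were called close when they shifted by less than a spread, mostly taken from the 2 control lists. For kept and new shares and for ratios of number and length, it was the standard deviation of the 2 values with a replicate left out. Those 2 values are themselves among the alternatives judged. This spread was wide for some results, such as 0.278 for the median log2 width ratio to si ct of 0.040. For the kept share it was 23.7 percentage points without EPOP, 21.2 without H3K27me3 and 17.8 without H3K4me3. Closeness says little there, and the count of 232 is not a measure of robustness. Direction was scored only for log2 ratios and the gap in counterparts, and ratios to si ct were not recomputed without a replicate. Most values that moved changed which control regions were asked about, and the cause was not tested. The kept share ran from 82.8% without Suz12 replicate 1 (sh ct alone) to 93.5% without replicate 2 (si ct alone), and was 80.0% over regions of either list. Leaving out each replicate in turn gave kept shares of 98.4% to 99.7% with EloB and 81.0% to 92.8% without, 96.8% to 98.2% with EPOP and 46.8% to 80.3% without, 98.7% to 99.8% with Jarid2 and 75.6% to 90.6% without, 96.4% to 97.1% with H3K27me3 and 52.4% to 82.5% without, and 86.3% to 95.2% with H3K4me3 and 50.5% to 75.6% without. Over regions of either list the shares were 78.1% without EloB, 96.2% and 52.5% with and without EPOP, 98.9% and 73.2% for Jarid2, 94.9% and 52.7% for H3K27me3, and 84.4% and 47.0% for H3K4me3. The share of new peaks ran from 11.9% to 19.7%, and the median log2 width ratio to the controls from 0.045 (si ct alone) to 0.55 (sh ct alone), when a replicate was left out. The count of regions 1.5-fold wider than si ct was 425 over regions of either list, 78 in the higher-scoring part, 126 with each peak counted once and 122 without joined regions. The count of narrower regions was 104 over regions of either list, 14 in the higher-scoring part, and 106 with gaps of up to 1000 bp bridged. The higher-scoring part applies 1 score limit to all 3 lists, whose scores are not known to be comparable. In it the peak number was 1.17 times the control mean, H3K27me3 regions were kept at 99.6%, and the gap between EloB knock-down and sh ct counterparts of si ct peaks was 23.9 percentage points. With lists of equal length that gap was 12.9. No paired analysis was possible because there is 1 Suz12 library upon EloB knock-down. The limits are this single library, unknown depth, controls that differ in method, and peak calls in place of reads. A change in signal that leaves the called peak in place was not measured.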
